A study of Homo sapiens with 14 samples.

Results

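The 39 interferon-stimulated genes described here were taken from a list of genes that cells switch on after interferon or virus sensing, and all 39 were found among the 24729 genes of a read count table from K562 cells. K562 is an established cell line from a human chronic myeloid leukemia and makes embryonic and fetal globins. RNA-seq was run on 14 libraries in 5 groups. In 4 groups the cells carried dCas9, a Cas9 that binds DNA without cutting it, together with BirA, an enzyme that biotinylates the tag on dCas9, and an sgRNA. The dCas9 tag also held a Flag epitope. The sgRNAs were aimed at the β-globin enhancer HS2 (sgHS2, n = 3), at the element named HBG after the fetal globin genes (sgHBG, n = 3), or at the β-globin elements named HS1-5 (sgHS1-5, n = 3), and sgGal4 was a control sgRNA without a target (n = 3). The last group was unmodified K562 cells (WT, n = 2), which lacked dCas9, BirA and sgRNA alike. The labels name no interferon or virus treatment, and they do not say whether a group was a clone or a pool of cells. Each group was thus its own cell population, and an effect of the sgRNA and one of the population cannot be told apart.

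Interferons bind receptors at the cell surface, JAK kinases then phosphorylate STAT2, which joins IRF9 in a complex that binds the interferon-stimulated response element (ISRE) of its target genes. Many targets are sensors of viral RNA (IFIH1, DDX58), antiviral effectors (the IFIT, OAS and MX families) or members of the pathway itself (STAT2, IRF7, IRF9), and USP18 acts as a brake on the receptor. K562 cells have lost the cluster of type I interferon genes. They are known to keep the receptor and to respond to added interferon.

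The ISRE was searched for in RefSeq promoters (build GRCh38.p14, 250 bases before to 50 bases after each gene's start), which held an entry for 30 of the 39 genes. The letters searched for were GAAA, then NN (any bases), then GAAA, on both strands, and matches were counted whether or not they overlapped. They were present for 23 of these 30 genes (76.7%), against 1195 of all 27305 symbols in the promoter table (4.38%). GAS is a different element of interferon-responsive promoters, and its letters TTCNNNGAA were present for 10 of the 30 genes (33.3%), against 9.38% of all symbols. A base could count in both motifs. Of the 14 genes that were higher in all 3 targeting groups than in sgGal4, 11 had an entry and 9 of these held an ISRE match. The other members had 19 entries, of which 14 held a match. The 200 bases before the start are printed for the 4 most abundant of those 14 genes that had an entry, and for STAT2 and IRF1, which differed in opposite directions between targeting groups. Capitals mark the ISRE letters. IFIH1 (chr2:162318685-162318884, minus strand) had 3 matches, the nearest beginning 21 bases before the start, and OAS3 (chr12:112938274-112938473, plus strand) had 2, the nearest at 12 bases. IFIT3 (chr10:89327797-89327996, plus strand) had 2 matches, the nearest at 122 bases. The other listed start of IFIT3, not printed, also had 2 matches, the nearest at 51 bases. PARP9 (chr3:122564301-122564500, minus strand) had 1 at 41 bases, with none at its other listed start. STAT2 (chr12:56360108-56360307, minus strand) and IRF1 (chr5:132490774-132490973, minus strand) had no match to the ISRE letters in the window. The IRF1 promoter did hold 1 GAS match, which is not marked, and that of STAT2 held 0.
IFIH1: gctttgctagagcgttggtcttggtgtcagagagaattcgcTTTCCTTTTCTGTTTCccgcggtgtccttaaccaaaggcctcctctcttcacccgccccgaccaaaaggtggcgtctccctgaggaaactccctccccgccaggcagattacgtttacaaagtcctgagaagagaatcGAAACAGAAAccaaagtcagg
OAS3: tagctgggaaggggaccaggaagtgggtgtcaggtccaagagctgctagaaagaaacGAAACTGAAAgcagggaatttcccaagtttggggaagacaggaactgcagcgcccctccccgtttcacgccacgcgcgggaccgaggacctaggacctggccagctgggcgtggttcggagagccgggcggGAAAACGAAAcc
IFIT3: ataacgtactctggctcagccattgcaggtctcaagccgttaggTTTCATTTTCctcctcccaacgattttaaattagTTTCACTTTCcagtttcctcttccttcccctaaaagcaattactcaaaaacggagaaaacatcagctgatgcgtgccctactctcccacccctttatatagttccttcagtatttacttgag
PARP9: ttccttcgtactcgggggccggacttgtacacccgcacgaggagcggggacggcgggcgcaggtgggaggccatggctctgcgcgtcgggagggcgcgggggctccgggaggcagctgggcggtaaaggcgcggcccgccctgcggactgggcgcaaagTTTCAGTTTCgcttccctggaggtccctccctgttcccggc
STAT2: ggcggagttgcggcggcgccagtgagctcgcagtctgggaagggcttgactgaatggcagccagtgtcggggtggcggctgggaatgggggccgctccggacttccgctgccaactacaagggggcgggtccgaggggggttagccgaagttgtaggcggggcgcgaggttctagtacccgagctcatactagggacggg
IRF1: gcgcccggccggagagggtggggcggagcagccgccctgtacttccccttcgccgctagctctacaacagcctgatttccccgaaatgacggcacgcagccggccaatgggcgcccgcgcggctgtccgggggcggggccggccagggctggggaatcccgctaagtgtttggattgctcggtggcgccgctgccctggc

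The libraries held 5694448 (sgHS1-5 1) to 11335831 (sgGal4 3) counted reads, so that a gene with 0 reads could still have had up to 0.262 to 0.486 CPM (counts per total reads, scaled between libraries), a limit that covers counting error only. The 15 erythroid and BCR-ABL markers of K562 had reads in every group. HBG2, a fetal globin gene that shares reads with its near copy HBG1, had 80.6 to 90.3 CPM in sgHBG, 243 to 324 CPM in sgHS2 and 174 to 279.7 CPM in sgHS1-5, against 58.1 to 166 CPM in sgGal4 and 122 to 129 CPM in WT. Some libraries stood apart from their own group. The χ² per degree of freedom over genes, near 1 when only counting error separates replicates, was 84.1 and 87.6 between sgGal4 1 and its replicates and 1.46 between those. It was 16.3 and 15.6 for sgHS2 2 and 17.1 and 11.2 for sgHS1-5 2, and 1.24 to 3.01 for all other pairs. Whether replicates came from separate cultures is not in the labels, and the p-values then reflect library-to-library spread, which may be technical. In such bulk samples, fewer cells of a type and less RNA per cell cannot be told apart.

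Levels of the 39 genes spanned a wide range. The membrane factors IFITM1, IFITM2, IFITM3 and BST2 made up 45.7% to 78.8% of the summed CPM of the list in each library, and IFITM1 had the highest level per transcript length, 509 RPKM on average over the libraries. The other 35 genes summed to 618.9, 576 and 602 CPM in sgHS2, 498, 514 and 518 CPM in sgHBG and 380.4, 476 and 380.6 CPM in sgHS1-5, against 316, 344 and 349.7 CPM in sgGal4 and 371 and 357 CPM in WT. The sgHS2 libraries were highest and the sgGal4 libraries lowest in this sum. Of the 39 genes, 33 passed the filter on low counts, and 6 (IFIT5, OAS1, OAS2, OASL, IFI44 and IFI44L) did not. Mean CPM was highest in sgHS2 for 17 of the 33 genes and lowest in sgGal4 for 16, while sgHS1-5 had the lowest mean for 8. These ranks were not counted over all genes, so they may not be particular to this list. Some of the 33 genes also passed the filter only through targeting libraries.

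**Figure D1:**
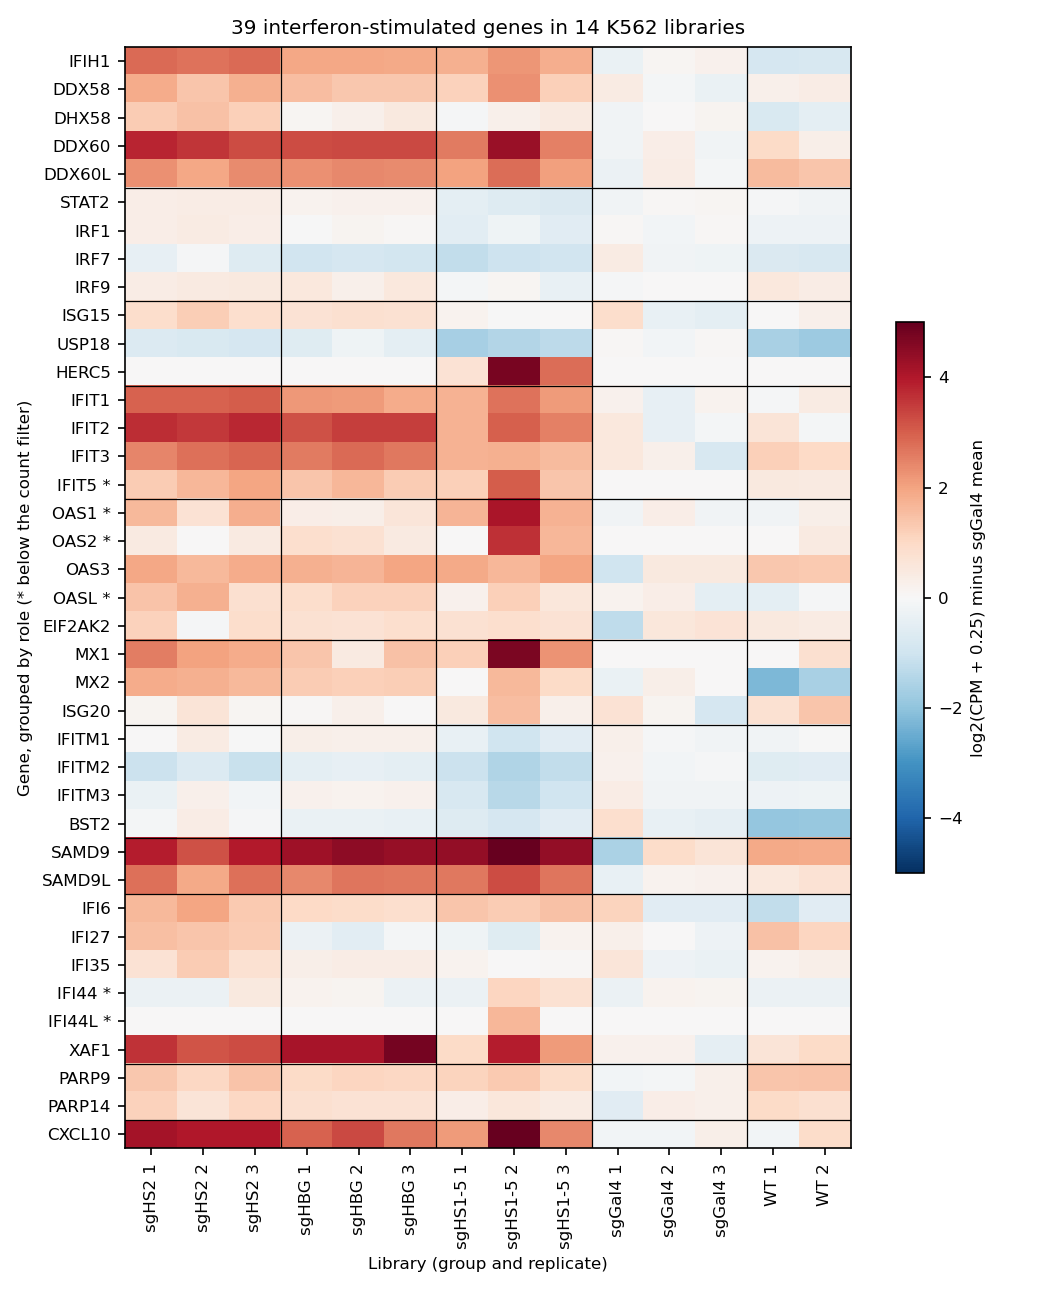
Levels of the 39 genes (rows, grouped by role, with * for the 6 below the count filter) in the 14 libraries (columns), as log2(CPM + 0.25) minus the mean of the sgGal4 libraries, with colours limited to 5 units on either side. Rows such as IFIH1, SAMD9 and IFIT2 are red across all 9 targeting libraries, and HERC5, OAS2 and MX1 are darkest in sgHS1-5 2.

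The first question the design poses is which genes differ between cells with a targeting sgRNA and cells with the sgGal4 control. Against sgGal4, most tested interferon-stimulated genes were higher in sgHS2, and about as many were higher as were not in sgHBG and sgHS1-5. In sgHS2, 24 of the 33 genes were higher at an adjusted p under 0.05 (edgeR's quasi-likelihood test), against 14.5% of all 14406 genes tested, and 2 were lower, against 15.6%. In sgHBG, 16 were higher (background 12.1%) and 3 lower (background 12.6%), and 1 was lower when sgHBG 1, sgHBG 3 or sgGal4 1 was left out. In sgHS1-5, 17 were higher (background 20.3%) and 8 lower (background 20.2%). The median log2 difference of the 33 genes was 1.33 in sgHS2, 0.70 in sgHBG and 1.03 in sgHS1-5, while the median of all genes was -0.02, -0.0012 and 0.02 in the same comparisons. Some of the 33 genes, such as DDX60, MX1 and HERC5, passed the filter on low counts through targeting libraries. The counts called higher and the medians are thus in part set by that filter. Shares of all genes in the refits without a library are not set beside the refit counts. These 3 comparisons share the sgGal4 libraries, so they are not independent of each other.

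**Figure D2:**
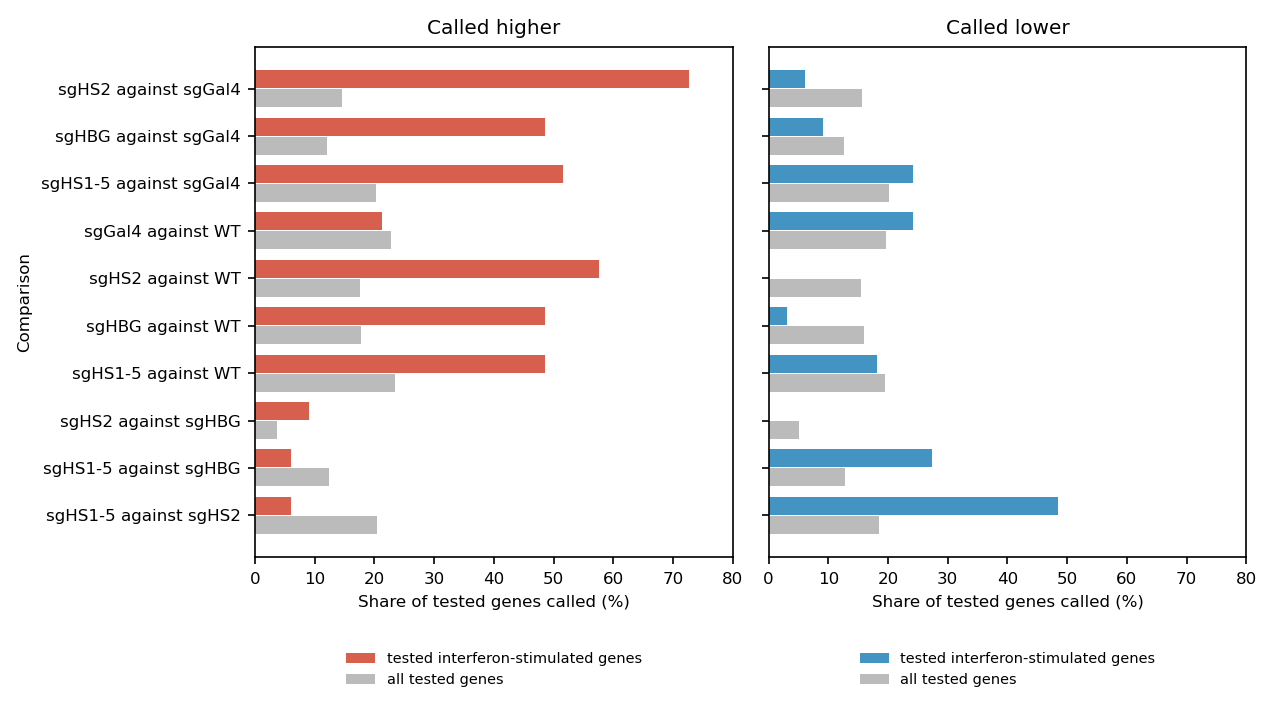
Share of genes called higher (left) or lower (right) at an adjusted p under 0.05 in each comparison (rows), for the 33 tested interferon-stimulated genes (coloured bars) and all 14406 tested genes (grey bars). The longest coloured bar is the 72.7% called higher in sgHS2 against sgGal4, and among genes called lower it is the 48.5% in sgHS1-5 against sgHS2.

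Of the 33 genes, 14 (42.4%) were higher in all 3 targeting groups than in sgGal4, against 4.76% of all 14406 genes. They were IFIH1, DDX58, DDX60, DDX60L, IFIT1, IFIT2, IFIT3, OAS3, MX2, SAMD9, SAMD9L, XAF1, PARP9 and CXCL10. Of these, DDX60, IFIT1, IFIT2, XAF1 and CXCL10 had at most 7 reads in any sgGal4 or WT library. They passed the filter on low counts through the targeting libraries, so the 42.4% is in part set by that filter. USP18 and IFITM2 were lower in all 3, or 6.06% of the 33 genes, against 5.69% of all genes. STAT2 and IRF1 were higher in sgHS2 and lower in sgHS1-5. EIF2AK2, the RNA-activated kinase PKR, and ISG20, an exonuclease, were called in none of these 3 comparisons, with 1 EIF2AK2 library of sgHS2 (16.8 CPM) and 1 of sgGal4 (7.23 CPM) far below their replicates. With sgGal4 1 left out, 25, 19 and 19 genes were higher in sgHS2, sgHBG and sgHS1-5. With sgHS1-5 represented by replicate 1 alone, 12 genes were higher in it and 5 lower, and without replicate 2 the counts were 15 and 7. With only the 2 compared groups in the fit, 11 genes were higher in sgHS1-5 and 5 lower. The shares of all genes called in these refits are not set beside these counts. A change in a count may therefore be shared by all genes.

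**Figure D3:**
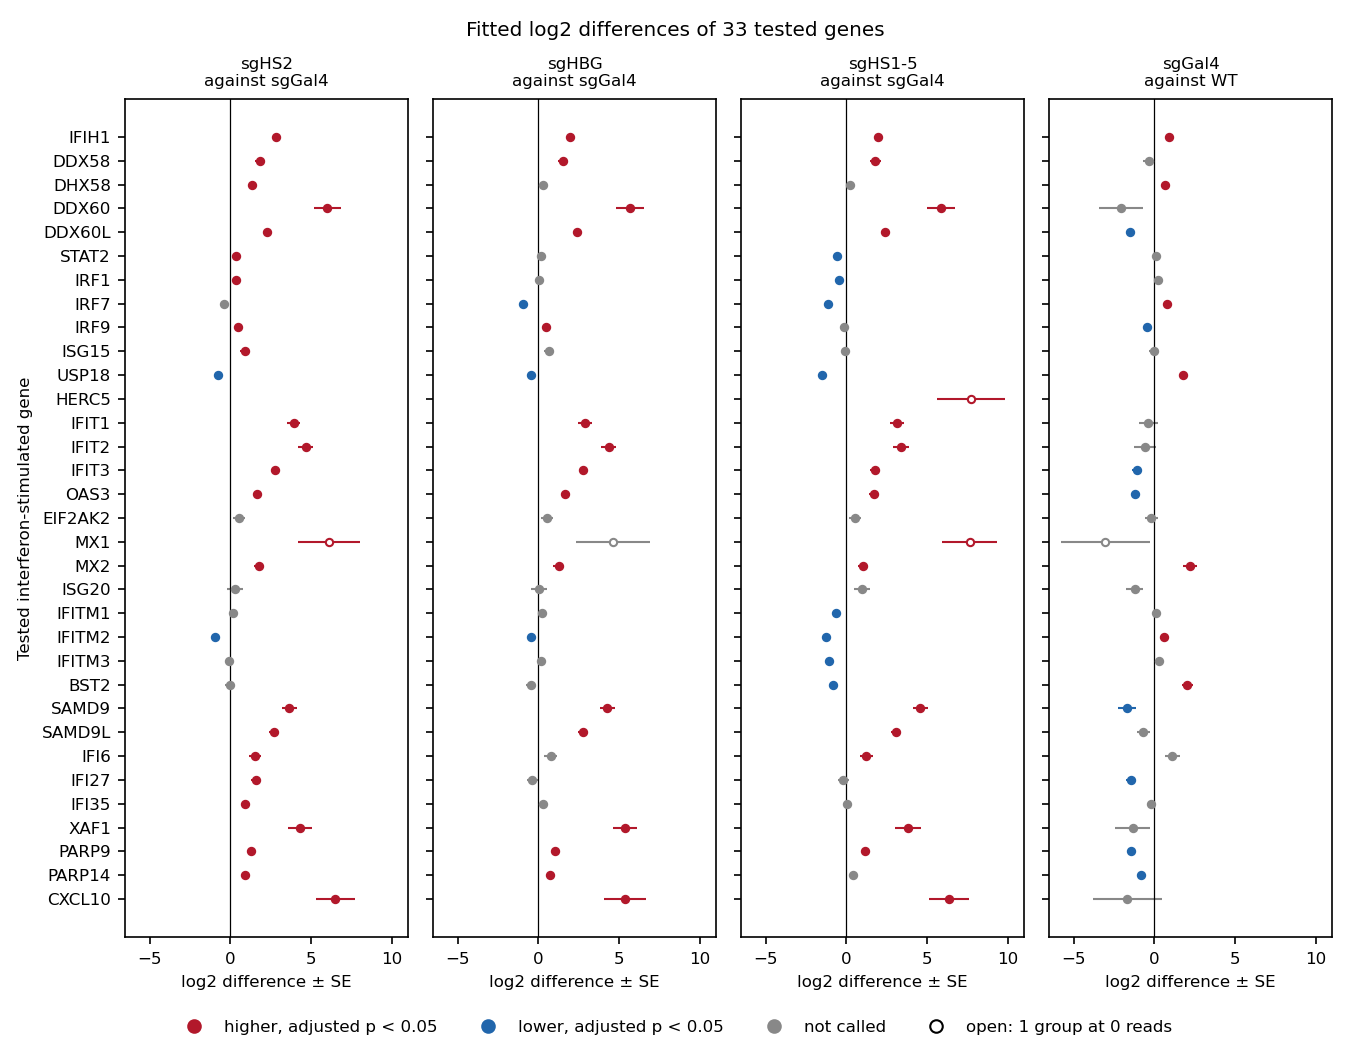
Fitted log2 differences with their SE (x axis) of the 33 tested genes (y axis) in 4 comparisons. Red points were called higher, blue points lower and grey points neither; open points have 1 group at 0 reads, so their fitted value depends on a prior count, and genes at 0 in both groups have no point. In the 3 comparisons with sgGal4 most points lie right of 0, and in sgGal4 against WT they lie on both sides.

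The cytosolic RNA sensors were among the genes with the clearest separation. IFIH1, the sensor MDA5 of long double-stranded RNA, had 40.8, 37.6 and 41.1 CPM in sgHS2, 22.2, 21.7 and 21.5 in sgHBG and 19.6, 26.9 and 20.3 in sgHS1-5, against 4.397, 6.0 and 6.51 in sgGal4 and 2.98 and 3.097 in WT. Every targeting library was above every sgGal4 and WT library, and sgHS2 was highest. Its log2 differences from sgGal4 were 2.80 ± 0.16 in sgHS2 (adjusted p = 1.78e-07), 1.93 ± 0.16 in sgHBG (adjusted p = 5.54e-06) and 1.96 ± 0.16 in sgHS1-5 (adjusted p = 2.89e-06). DDX58, the sensor RIG-I, had 6.73, 4.72 and 6.35 CPM in sgHS2, 5.303, 4.55 and 4.62 in sgHBG and 4.05, 9.01 and 4.06 in sgHS1-5, against 2.27, 1.55 and 1.28 in sgGal4 and 2.02 and 2.19 in WT, with no targeting library as low as the control libraries. Its log2 differences were 1.83 ± 0.33 in sgHS2 (adjusted p = 0.00122), 1.53 ± 0.33 in sgHBG (adjusted p = 0.00575) and 1.78 ± 0.34 in sgHS1-5 (adjusted p = 0.00146). The highest DDX58 level was in sgHS1-5 2, far above the other sgHS1-5 libraries.

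DDX60, a helicase linked to RIG-I signalling, was almost silent in sgGal4, with 3.67, 3.11 and 2.39 CPM in sgHS2, 2.402, 2.498 and 2.53 in sgHBG and 1.46, 5.33 and 1.35 in sgHS1-5, against 0, 0.0968 and 0 in sgGal4 and 0.289 and 0.0911 in WT. The sgGal4 libraries held 1 read of it in all, so the ratio to sgGal4 was 86.8 (95% counting interval 15.2 to 3462) in sgHS2, 70.1 (95% counting interval 12.2 to 2803) in sgHBG and 78.5 (95% counting interval 13.5 to 3154) in sgHS1-5 (adjusted p = 0.000209, 0.000577 and 0.000274). The sgHS1-5 libraries held 9, 39 and 10 reads, most of them in replicate 2. Without that library the fitted log2 difference of DDX60 in sgHS1-5, which depends on a prior count, was 4.88, against 5.83 ± 0.87 with it, and it was still called (adjusted p = 0.000321, or 0.00376 with replicate 1 alone). Its paralog DDX60L had 19.1, 14.8 and 19.9 CPM in sgHS2, 18.9, 20.4 and 20.2 in sgHBG and 15.5, 27.3 and 16.1 in sgHS1-5, against 2.98, 4.84 and 3.49 in sgGal4 and 11.4 and 10.1 in WT. The targeting libraries were highest and the sgGal4 libraries lowest, with WT between them. The log2 differences of DDX60L were 2.23 ± 0.24 in sgHS2 (adjusted p = 2.7e-05), 2.38 ± 0.24 in sgHBG (adjusted p = 3.09e-05) and 2.36 ± 0.24 in sgHS1-5 (adjusted p = 1.79e-05). DHX58, the related protein LGP2 that modulates both sensors, was called in sgHS2 alone (log2 1.33 ± 0.17, adjusted p = 9.65e-05), where it had 18.01, 20.6 and 16.9 CPM against 6.38, 7.45 and 8.07 CPM in sgGal4. The difference of DHX58 between sgHS2 and sgHBG was itself called (log2 1.03 ± 0.16, adjusted p = 0.00194).

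All 3 tested IFIT genes, whose proteins bind viral RNA and block its translation, were higher in each targeting group than in sgGal4. IFIT1 had 3.32, 3.33 and 3.499 CPM in sgHS2, 1.801, 1.78 and 1.395 in sgHBG and 1.296, 2.73 and 1.76 in sgHS1-5, against 0.284, 0.0968 and 0.275 in sgGal4 and 0.192 and 0.364 in WT. IFIT2 had 5.77, 5.15 and 6.17 CPM in sgHS2, 4.003, 4.91 and 4.88 in sgHBG and 1.296, 3.41 and 2.43 in sgHS1-5, against 0.426, 0.0968 and 0.183 in sgGal4 and 0.481 and 0.182 in WT, and IFIT3 had 12.4, 15.6 and 17.2 CPM in sgHS2, 13.8, 16.4 and 14.3 in sgHBG and 7.61, 7.78 and 6.62 in sgHS1-5, against 3.12, 2.52 and 1.101 in sgGal4 and 5.003 and 4.37 in WT. For each of them no targeting library overlapped a sgGal4 or WT library, and sgHS1-5 was the lowest targeting group for IFIT2 and IFIT3. The log2 differences of IFIT1 were 3.91 ± 0.41 in sgHS2 (adjusted p = 2.16e-05), 2.89 ± 0.43 in sgHBG (adjusted p = 0.000541) and 3.11 ± 0.44 in sgHS1-5 (adjusted p = 0.000185). Those of IFIT2 were 4.65 ± 0.45 in sgHS2 (adjusted p = 1.32e-05), 4.34 ± 0.46 in sgHBG (adjusted p = 4.57e-05) and 3.41 ± 0.50 in sgHS1-5 (adjusted p = 0.000236). Those of IFIT3 were 2.78 ± 0.27 in sgHS2 (adjusted p = 1.14e-05), 2.76 ± 0.27 in sgHBG (adjusted p = 2.33e-05) and 1.75 ± 0.28 in sgHS1-5 (adjusted p = 0.00047), and IFIT3 was also called lower in sgHS1-5 than in sgHS2 (log2 -1.04 ± 0.24, adjusted p = 0.00465). IFIT5 lay below the filter, with 4, 5 and 8 reads in sgHS2, 4, 6 and 4 in sgHBG and 2, 13 and 3 in sgHS1-5, against 0 in each library in sgGal4 and 1 and 1 in WT.

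Of the oligoadenylate synthetases, which activate the RNA-degrading RNase L, OAS3 alone had enough reads to be tested. OAS3 had 26.7, 20.9 and 24.7 CPM in sgHS2, 23.5, 22.6 and 26.9 in sgHBG and 25.4, 21.99 and 26.8 in sgHS1-5, against 3.26, 9.58 and 9.54 in sgGal4 and 17.3 and 17.1 in WT. The targeting libraries exceeded all others, and sgGal4 was lowest and replicate 1 the lowest of its libraries. OAS3 differed from sgGal4 by log2 1.65 ± 0.27 in sgHS2 (adjusted p = 0.00056), 1.67 ± 0.27 in sgHBG (adjusted p = 0.000819) and 1.69 ± 0.27 in sgHS1-5 (adjusted p = 0.000446). OAS1 had 7, 2 and 8 reads in sgHS2, 1, 1 and 2 in sgHBG and 4, 33 and 5 in sgHS1-5, against 0, 1 and 0 in sgGal4 and 0 and 1 in WT, and OAS2 had 1, 0 and 1 reads in sgHS2, 2, 2 and 1 in sgHBG and 0, 21 and 4 in sgHS1-5, against 0 in each library in sgGal4 and 0 and 1 in WT. Most OAS1 and OAS2 reads were thus in sgHS1-5 2. OASL had 0 to 9 reads in a library. In a fit with no filter on low counts, IFIT5 was called higher than in sgGal4 in sgHS2, sgHBG and sgHS1-5 (adjusted p = 0.00813, 0.0173 and 0.00262), OASL in sgHS2 (0.0337), and OAS1 and OAS2 in sgHS1-5 (0.00217 and 0.0113).

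The MX GTPases trap viral nucleoproteins. MX1 had 1.22, 0.751 and 0.645 CPM in sgHS2, 0.4003, 0.0892 and 0.436 in sgHBG and 0.324, 6.28 and 0.946 in sgHS1-5, against 0 in each library in sgGal4 and 0 and 0.182 in WT, so that sgGal4 held no read. MX1 was at least 8.35-fold higher in sgHS2 (adjusted p = 0.0361), at least 2.89-fold higher in sgHBG (not called, adjusted p = 0.158) and at least 24.8-fold higher in sgHS1-5 (adjusted p = 0.00551), each bound set against 3 reads over the sgGal4 libraries. In sgHS1-5 most MX1 reads were in replicate 2, and with replicate 1 alone the adjusted p was 0.149. In sgHS2 the MX1 call was lost when any 1 sgHS2 library, sgGal4 2 or sgGal4 3 was left out (adjusted p = 0.0547 to 0.0907). MX2 had 13.6, 12.98 and 11.5 CPM in sgHS2, 9.01, 8.65 and 8.89 in sgHBG and 3.72, 11.6 and 7.3 in sgHS1-5, against 2.84, 4.55 and 3.67 in sgGal4 and 0.577 and 1.002 in WT. MX2 differed from sgGal4 by log2 1.77 ± 0.31 in sgHS2 (adjusted p = 0.00104), 1.25 ± 0.31 in sgHBG (adjusted p = 0.0125) and 1.03 ± 0.32 in sgHS1-5 (adjusted p = 0.0229), and sgHS1-5 1 lay inside the sgGal4 range. Without sgHS1-5 2 the MX2 difference in sgHS1-5 was 0.59 (adjusted p = 0.129), and without sgGal4 3 it was 1.01 (0.0517).

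SAMD9 and its neighbour SAMD9L, which restrict poxviruses and slow growth, were each higher in all targeting groups. SAMD9 had 11.02, 6.44 and 11.3 CPM in sgHS2, 13.8, 16.2 and 14.8 in sgHBG and 15.5, 24.3 and 15.4 in sgHS1-5, against 0, 1.16 and 0.917 in sgGal4 and 2.501 and 2.46 in WT. Its mean was highest in sgHS1-5, and sgGal4 1 had no read, with no overlap between targeting and control libraries. From sgGal4 it differed by log2 3.64 ± 0.45 in sgHS2 (adjusted p = 8.63e-05), 4.27 ± 0.44 in sgHBG (adjusted p = 3.94e-05) and 4.58 ± 0.45 in sgHS1-5 (adjusted p = 1.2e-05). SAMD9L had 8.22, 4.398 and 8.196 CPM in sgHS2, 6.304, 7.76 and 7.499 in sgHBG and 7.45, 11.7 and 7.84 in sgHS1-5, against 0.709, 1.16 and 1.19 in sgGal4 and 1.54 and 1.82 in WT, and its log2 differences were 2.72 ± 0.31 in sgHS2 (adjusted p = 4.77e-05), 2.76 ± 0.31 in sgHBG (adjusted p = 6.93e-05) and 3.09 ± 0.31 in sgHS1-5 (adjusted p = 1.69e-05).

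Among the remaining genes higher in all targeting groups, CXCL10 encodes a chemokine that attracts T cells. CXCL10 had 4.72, 4.18 and 4.14 CPM in sgHS2, 1.901, 2.498 and 1.48 in sgHBG and 0.972, 9.42 and 1.22 in sgHS1-5, against 0, 0 and 0.0917 in sgGal4 and 0 and 0.273 in WT. The sgGal4 libraries held 1 read of it in all, and the ratio to sgGal4 was 123 (95% counting interval 21.8 to 4911) in sgHS2, 55.4 (95% counting interval 9.59 to 2222) in sgHBG and 114 (95% counting interval 19.9 to 4544) in sgHS1-5 (adjusted p = 0.00143, 0.0106 and 0.00164). Most of the sgHS1-5 reads were in replicate 2, and with replicate 1 alone CXCL10 was still called (adjusted p = 0.0258). XAF1, a pro-apoptotic antagonist of XIAP, had 5.33, 3.86 and 4.14 CPM in sgHS2, 7.705, 7.85 and 12.4 in sgHBG and 0.648, 6.83 and 1.76 in sgHS1-5, against 0.284, 0.2903 and 0.0917 in sgGal4 and 0.481 and 0.638 in WT. It was highest in sgHBG, and sgHS1-5 1 was close to WT 2. Its log2 differences were 4.30 ± 0.77 in sgHS2 (adjusted p = 0.00113), 5.37 ± 0.74 in sgHBG (adjusted p = 0.000288) and 3.80 ± 0.81 in sgHS1-5 (adjusted p = 0.00292), and with sgHS1-5 1 alone the sgHS1-5 value was 1.55 (adjusted p = 0.282). Without strand, XAF1 reads cannot be told apart from those of PRAL, an RNA on the opposite strand that overlaps it.

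PARP9, an ADP-ribosyltransferase that works with the ubiquitin ligase DTX3L, had 15.4, 12.2 and 16.4 CPM in sgHS2, 11.6, 12.6 and 12.2 in sgHBG and 13.1, 14.9 and 11.4 in sgHS1-5, against 5.39, 5.42 and 6.97 in sgGal4 and 15.8 and 16.2 in WT. The targeting and WT libraries were alike in range, and the sgGal4 libraries stood below all of them. The log2 differences of PARP9 from sgGal4 were 1.30 ± 0.16 in sgHS2 (adjusted p = 7.49e-05), 1.02 ± 0.16 in sgHBG (adjusted p = 0.000688) and 1.14 ± 0.16 in sgHS1-5 (adjusted p = 0.000201). PARP9 and DTX3L lie head to head, and their reads cannot be told apart where they overlap. PARP14, a related enzyme, was called higher in sgHS2 (log2 0.92 ± 0.20, adjusted p = 0.00358) and sgHBG (log2 0.70 ± 0.20, adjusted p = 0.0212), with 24.3 CPM in sgGal4 1 against 44.8 and 42.4 CPM in its replicates. The sgHBG call of PARP14 was lost when any 1 sgHBG library was left out (adjusted p = 0.0557 to 0.0684), and both calls were lost with only the compared groups in the fit (0.0533 in sgHS2 and 0.0894 in sgHBG).

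**Figure D4:**
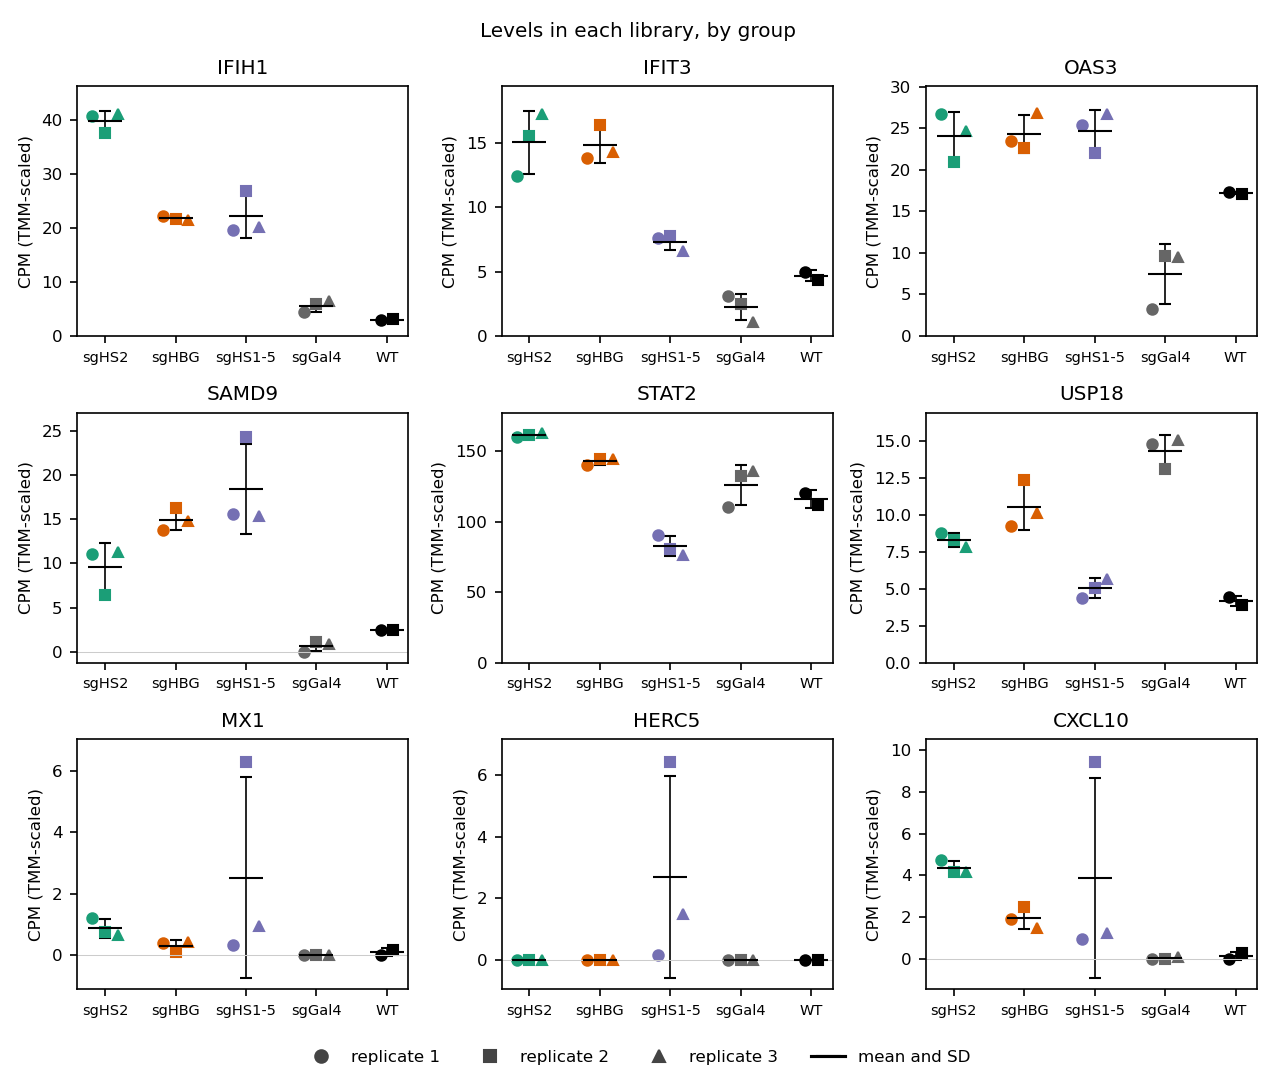
CPM of 9 genes in each library (points, with the replicate number as the symbol) by group (x axis), with the group mean and SD in black. IFIH1, IFIT3, OAS3 and SAMD9 are above sgGal4 in all 9 targeting libraries, STAT2 is lowest in sgHS1-5, USP18 is highest in sgGal4, and MX1, HERC5 and CXCL10 peak in sgHS1-5 2.

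The transcription factors of the pathway divided by group. STAT2, a subunit of the ISRE-binding complex, had 159.7, 162 and 163 CPM in sgHS2, 140.1, 145 and 145 in sgHBG and 90.5, 80.8 and 76.7 in sgHS1-5, against 110.1, 132 and 136 in sgGal4 and 121 and 112 in WT. Every sgHS2 library was above, and every sgHS1-5 library below, the sgGal4 and WT ranges. The STAT2 log2 differences from sgGal4 were 0.35 ± 0.10 in sgHS2 (adjusted p = 0.0169), 0.18 ± 0.10 in sgHBG (adjusted p = 0.194) and -0.61 ± 0.10 in sgHS1-5 (adjusted p = 0.00056). IRF1, which activates many of the same promoters, had 38.6, 41.2 and 38.9 CPM in sgHS2, 30.6, 33.99 and 31.7 in sgHBG and 21.2, 26.8 and 20.7 in sgHS1-5, against 32.3, 27.8 and 32.4 in sgGal4 and 25.9 and 25.96 in WT. The sgHS1-5 libraries lay below sgGal4, and replicate 2 was above both WT libraries. The log2 differences of IRF1 were 0.36 ± 0.11 in sgHS2 (adjusted p = 0.0287), 0.06 ± 0.11 in sgHBG (adjusted p = 0.724) and -0.43 ± 0.12 in sgHS1-5 (adjusted p = 0.0113). Between sgHS1-5 and sgHS2 the log2 difference was -0.97 ± 0.10, adjusted p = 1.88e-05 for STAT2 and -0.79 ± 0.12, adjusted p = 0.000233 for IRF1. With only the 2 compared groups in the fit, neither STAT2 (adjusted p = 0.094) nor IRF1 (0.086) was called in sgHS2, and IRF1 was not called in sgHS1-5 (0.144). The sgHS2 call of IRF1 was also lost when any 1 sgHS2 library (adjusted p = 0.0632 to 0.0732) or sgGal4 2 (0.0998) was left out and with the replicate block (0.0515), its sgHS1-5 call without sgHS1-5 3 (0.0603), and the sgHS2 call of STAT2 without sgHS2 3 (0.0523). IRF1 overlaps C5orf56 on the opposite strand.

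IRF7, the main inducer of interferon genes, had 16.2, 20.8 and 13.7 CPM in sgHS2, 11.2, 12.1 and 11.2 in sgHBG and 9.07, 10.4 and 10.95 in sgHS1-5, against 29.1, 18.97 and 18.6 in sgGal4 and 13.2 and 12.4 in WT. The sgGal4 libraries were high for IRF7, replicate 1 most, and the log2 differences were -0.39 ± 0.19 in sgHS2 (adjusted p = 0.134), -0.94 ± 0.19 in sgHBG (adjusted p = 0.00367) and -1.12 ± 0.20 in sgHS1-5 (adjusted p = 0.000846). IRF9, the DNA-binding subunit that pairs with STAT2, had 13.4, 14.3 and 14.6 CPM in sgHS2, 14.8, 12.2 and 14.9978 in sgHBG and 9.55, 10.9 and 7.84 in sgHS1-5, against 9.93, 10.5 and 10.4 in sgGal4 and 14.8 and 13.3 in WT. The sgHS2, sgHBG and WT libraries were above sgGal4, and sgHS1-5 overlapped it. Its log2 differences were 0.45 ± 0.14 in sgHS2 (adjusted p = 0.0261), 0.44 ± 0.14 in sgHBG (adjusted p = 0.0334) and -0.13 ± 0.14 in sgHS1-5 (adjusted p = 0.511). The IRF9 calls in sgHS2 and sgHBG were both lost with the replicate block, with only the compared groups in the fit and without sgGal4 2 or sgGal4 3. The sgHS2 call was lost when any 1 sgHS2 library was left out (adjusted p = 0.0509 to 0.084), and the sgHBG call without sgHBG 1 (0.112) or sgHBG 3 (0.123).

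ISG15 is a ubiquitin-like protein, HERC5 its ligase and USP18 the protease that removes it. USP18 ran against most of the list, with 8.74, 8.26 and 7.83 CPM in sgHS2, 9.21, 12.3 and 10.1 in sgHBG and 4.37, 5.05 and 5.68 in sgHS1-5, against 14.8, 13.1 and 15.05 in sgGal4 and 4.43 and 3.92 in WT. Every sgGal4 library was above all targeting and WT libraries, and sgHS1-5 was the lowest targeting group. The log2 differences of USP18 from sgGal4 were -0.79 ± 0.15 in sgHS2 (adjusted p = 0.00163), -0.44 ± 0.15 in sgHBG (adjusted p = 0.045) and -1.50 ± 0.16 in sgHS1-5 (adjusted p = 2.21e-05). The sgHBG call of USP18 was lost under 14 alternatives, with log2 differences of -0.44 to -0.35, among them the fits without sgHBG 1 (adjusted p = 0.163), sgHBG 3 (0.141), sgGal4 1 (0.064) or sgGal4 3 (0.102).

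ISG15 itself had 22.9, 29.7 and 22.4 CPM in sgHS2, 20.7, 22.1 and 21.1 in sgHBG and 14.3, 12.2 and 12.7 in sgHS1-5, against 23.3, 9.48 and 8.72 in sgGal4 and 12.5 and 14.9 in WT. It was called higher in sgHS2 (log2 0.88 ± 0.29, adjusted p = 0.0346), although sgGal4 1 lay within the sgHS2 range and far above its replicates. That call was lost under 13 alternatives, among them leaving out any 1 sgHS2 library (adjusted p = 0.0596 to 0.106), sgGal4 2 (0.117) or sgGal4 3 (0.112), and fitting only the compared groups (0.155). Without sgGal4 1 the ISG15 difference was 1.45 in sgHS2, 1.23 in sgHBG and 0.52 in sgHS1-5, all called (adjusted p = 8.53e-06, 6.68e-05 and 0.0155). HERC5 had 1, 47 and 11 reads in sgHS1-5 and 0 reads in each of the other 11 libraries. It was at least 26.6-fold higher in sgHS1-5 than in sgGal4 (adjusted p = 0.0332). HERC5 passed the filter through sgHS1-5, and without sgHS1-5 2 it was not tested. Its call was lost with DESeq2 (adjusted p = 0.206) and without sgGal4 2 (0.0572) or sgGal4 3 (0.0557).

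The membrane restriction factors block virus entry (IFITM1, IFITM2 and IFITM3) or tether budding virus (BST2), and their reads may be split uncertainly among the near-identical IFITM genes. All 4 were lower in sgHS1-5 than in sgGal4. IFITM2 had 88.7, 117 and 87.7 CPM in sgHS2, 133, 143 and 132 in sgHBG and 90.04, 66.1 and 80.2 in sgHS1-5, against 217, 170.1 and 179.6 in sgGal4 and 122 and 126 in WT. The sgGal4 libraries were above all others for IFITM2, and its log2 differences were -0.95 ± 0.14 in sgHS2 (adjusted p = 0.000346), -0.47 ± 0.14 in sgHBG (adjusted p = 0.0295) and -1.26 ± 0.15 in sgHS1-5 (adjusted p = 4.11e-05). In sgHBG the IFITM2 call was lost without sgGal4 1 (log2 -0.36, adjusted p = 0.0517) and when any 1 sgHBG library was left out (adjusted p = 0.0646 to 0.0978). IFITM1 had 143 to 224 CPM in sgHS1-5, against 254 to 347 CPM in sgGal4 (log2 -0.64 ± 0.17, adjusted p = 0.0105), and IFITM3 had 29.9 to 44.4 CPM, against 68.6 to 100.4 CPM (log2 -1.07 ± 0.19, adjusted p = 0.000925). With sgHS1-5 1 alone, neither IFITM1 (adjusted p = 0.246) nor IFITM3 (0.0529) was called.

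BST2 had 266, 371 and 279 CPM in sgHS2, 228, 227 and 221 in sgHBG and 183, 163 and 196 in sgHS1-5, against 511, 222 and 211 in sgGal4 and 75.5 and 76.7 in WT. All 12 dCas9 libraries were above both WT libraries, and sgGal4 1 was far above its replicates. The BST2 difference of sgHS1-5 from sgGal4 (log2 -0.80 ± 0.27, adjusted p = 0.0319) was -0.26 without sgGal4 1 (adjusted p = 0.0933), and its call was also lost when any 1 sgHS1-5 library was left out (0.0607 to 0.1). In sgHS2 the difference was -0.04 ± 0.27 (adjusted p = 0.93), and without sgGal4 1 it was 0.49 and called (adjusted p = 0.00638).

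Of the IFI genes, IFI27, a mitochondrial protein, and IFI35, a regulator of sensor signalling, were called in sgHS2 alone, with log2 differences of 1.57 ± 0.28, adjusted p = 0.00123 and 0.92 ± 0.22, adjusted p = 0.00806. IFI27 had 3.76, 3.43 and 3.13 CPM in sgHS2, 0.901, 0.714 and 1.05 in sgHBG and 0.972, 0.683 and 1.35 in sgHS1-5, against 1.42, 1.16 and 0.917 in sgGal4 and 3.66 and 2.73 in WT, so that sgHS2 and WT were high and the other 3 groups low. Its difference between sgHS2 and sgHBG was called (log2 1.94 ± 0.29, adjusted p = 0.0012). IFI35 in sgHS2 did not differ past the threshold from sgHBG (log2 0.60 ± 0.22, adjusted p = 0.114). IFI6, an inhibitor of apoptosis, was called in sgHS2 (log2 1.51 ± 0.38, adjusted p = 0.0094) and sgHS1-5 (log2 1.24 ± 0.39, adjusted p = 0.0224), with 12.5 CPM in sgGal4 1 and 3.68 and 3.67 CPM in its replicates. Without sgGal4 1, IFI6 was called in all 3 groups (log2 2.30, 1.54 and 2.02 in sgHS2, sgHBG and sgHS1-5). The sgHS1-5 call of IFI6 was lost without sgGal4 2 (adjusted p = 0.0771), sgGal4 3 (0.0756) or sgHS1-5 3 (0.0596) and with sgHS1-5 1 alone (0.156). With only the compared groups, IFI6 was called in neither sgHS2 (0.0768) nor sgHS1-5 (0.119). IFI44 had 0 to 3 reads in a library, and IFI44L had 4 reads, all in sgHS1-5 2.

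The sgHS1-5 libraries differed among themselves. In 10 of the 33 genes sgHS1-5 2 was at least 2-fold above sgHS1-5 1, against 10.2% of all genes, and in 0 genes at least 2-fold below, against 3.44% (single libraries, no test). Between sgHS1-5 3 and sgHS1-5 1 3 genes were at least 2-fold above, against 6.75%, and 0 at least 2-fold below, against 1.69%. In 7 genes sgHS1-5 2 was at least 2-fold above sgHS1-5 3, against 7.96%, and in 0 genes at least 2-fold below, against 2.6%. Genes with at least 30 reads in sgHS1-5 whose replicate 1 was 2-fold or more below the mean of replicates 2 and 3 were DDX60, HERC5, IFIT2, OAS1, MX1, MX2, XAF1 and CXCL10. The excess was 24.4-fold for HERC5, 11.2-fold for MX1, 6.63-fold for XAF1 and 5.47-fold for CXCL10. By contrast, PARP9, OAS3, IFIT3 and IFI6 were within 1.1-fold between replicate 1 and that mean.

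Some markers of other blood cells moved with these libraries, and others did not. The 10 myeloid markers summed to 216, 2165 and 567 CPM in sgHS1-5 1 to 3, against 122 to 364 CPM in the other libraries. MPO, the neutrophil granule peroxidase, had 19.4, 1415 and 264 CPM, against no more than 0.284 CPM elsewhere, and ELANE, neutrophil elastase, had 2.11, 73.6 and 13.5 CPM, against no more than 0.194 CPM. The B cell gene MS4A1 had 2.43, 38.9 and 9.598 CPM and 0 reads elsewhere. S100A8 was at 0 in sgHS1-5 1 and in every library outside sgHS1-5. Markers without this order in sgHS1-5 1 to 3 included CD68 (103, 82.6 and 101 CPM) and FCGR3A (0.324, 0.273 and 0.27 CPM). The same held for CD3D (25.6, 22.3 and 27.6 CPM) and PTPRC (314, 309 and 313 CPM). The 15 erythroid and BCR-ABL markers summed to 3010, 2346 and 2876 CPM in these libraries. The 12 lymphoid markers summed to 352, 490 and 381 CPM in sgHS1-5, 384 to 399.6 CPM in sgHBG and 138 to 179 CPM in sgHS2, against 138 to 243 CPM in sgGal4, and PTPRC, the common leukocyte antigen, made up most of these sums. The part of these markers in the results was not tested. The library sgHS1-5 1 had the least MPO of the sgHS1-5 libraries but more than any other group. With sgHS1-5 represented by this replicate alone, HERC5 had 1 read and was not tested. The log2 differences from sgGal4 were then, for example, 1.78 for IFIH1, 4.32 for SAMD9, 2.02 for DDX60L, 2.54 for IFIT1 and 1.14 for PARP9. The calls of MX2, XAF1, MX1 and IFI6 were lost, with MX2 at log2 -0.0047 (adjusted p = 0.996).

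**Figure D5:**
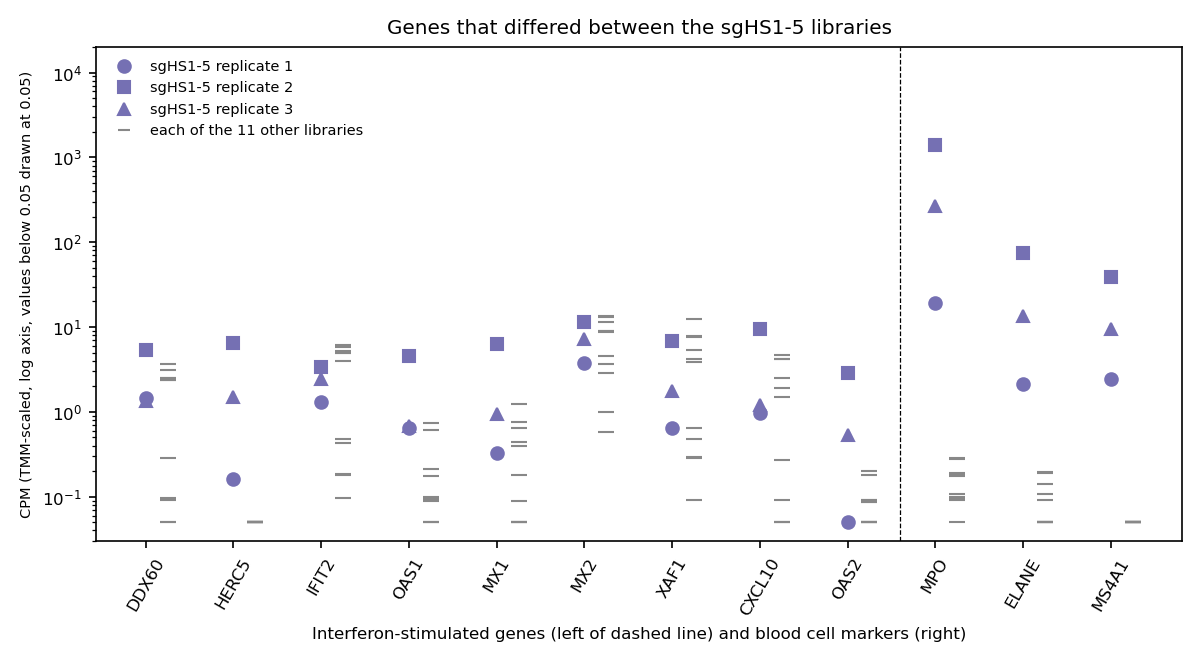
CPM (log axis) of 9 interferon-stimulated genes and 3 blood cell markers in the sgHS1-5 libraries (purple symbols by replicate) and in each of the 11 other libraries (grey dashes), with values under 0.05 drawn at 0.05. For HERC5, MX1, MPO, ELANE and MS4A1 the order is replicate 2, then 3, then 1, and the markers lie near the bottom in the other libraries.

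The sgGal4 cells were also compared with WT. Of the 33 genes, 7 (21.2%) were higher in sgGal4 than in WT, against 22.7% of all genes, and 8 (24.2%) were lower, against 19.6%, so that both shares lay near those of all genes, and the median log2 difference was -0.34, against 0.03 for all genes. Without WT 1, 4 were higher and 4 lower. The share of all genes called in that refit is not set beside these counts. USP18 (log2 1.77 ± 0.18, adjusted p = 7.78e-06), MX2 (log2 2.21 ± 0.46, adjusted p = 0.00192) and BST2 (log2 2.05 ± 0.33, adjusted p = 0.000287) were the most raised. Among the lowered genes were DDX60L (log2 -1.50 ± 0.26, adjusted p = 0.000625), PARP9 (log2 -1.42 ± 0.17, adjusted p = 3.15e-05), OAS3 (log2 -1.17 ± 0.29, adjusted p = 0.00614) and IFIT3 (log2 -1.10 ± 0.31, adjusted p = 0.0115).

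The targeting groups were also compared with WT, a choice with its own shared controls. In sgHS2, 19 genes were higher than in WT (background 17.6%) and 0 lower (background 15.5%). For these lower genes, 1 passed an unadjusted p under 0.05 in edgeR, and DESeq2 called 0. In sgHBG, 16 were higher (background 17.7%) and 1, IFI27, was lower (background 15.9%). In sgHS1-5, 16 were higher (background 23.4%) and 6 lower (background 19.5%), or 9 and 1 with replicate 1 alone, and 8 were higher without WT 1. For the refits with fewer libraries, shares of all genes are not set beside the counts. Of the 14 genes higher in all targeting groups than in sgGal4, 11 were also higher in all 3 than in WT. These 11 were 33.3% of the 33 genes, and 1.03% of all genes were higher in all 3 targeting groups than in both sgGal4 and WT. The 33.3% and the counts higher than in WT are also in part set by the filter on low counts. Without sgHS1-5 2, XAF1 was not called higher in sgHS1-5 than in WT (log2 1.14, adjusted p = 0.151). The exceptions were IFIT3, which was called in sgHS2 and sgHBG but had a log2 difference of 0.65 ± 0.29, adjusted p = 0.0859 in sgHS1-5, and OAS3 and PARP9, which were called in none. OAS3 differed from WT by 0.49 ± 0.28, adjusted p = 0.211 in sgHS2, and PARP9 by -0.12 ± 0.16, adjusted p = 0.612. In sgGal4, 5 of the 14 genes were lower than in WT (DDX60L, IFIT3, OAS3, SAMD9 and PARP9) and 2 higher (IFIH1 and MX2). The 14 genes were picked for low levels in these same sgGal4 libraries, so the lower count follows in part from that choice.

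IFIH1 kept its separation in both views. Against WT its log2 differences were 3.71 ± 0.20 in sgHS2, 2.84 ± 0.19 in sgHBG and 2.87 ± 0.19 in sgHS1-5 (adjusted p = 6.12e-08, 4.21e-07 and 2.8e-07). MX2 was farther from WT than from sgGal4, with 3.98 ± 0.44 in sgHS2, 3.46 ± 0.44 in sgHBG and 3.24 ± 0.45 in sgHS1-5. USP18 was higher than WT in sgHS2 (log2 0.99 ± 0.18, adjusted p = 0.00102) and sgHBG (log2 1.34 ± 0.18, adjusted p = 0.000105), the opposite side from the comparison with sgGal4. In sgHS1-5 its difference from WT was 0.28 ± 0.19, adjusted p = 0.265.

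The targeting groups were compared directly as well. Between sgHS2 and sgHBG, 3 genes were higher in sgHS2 (background 3.76%): IFIH1 (log2 0.87 ± 0.14, adjusted p = 0.00201), DHX58 and IFI27. No gene was called lower in sgHS2 by edgeR (background 5.15%), although 3 had an unadjusted p under 0.05 and DESeq2 called 1. Without sgGal4 1, a library of neither group that enters through the shared fit, 9 genes were higher and 2 lower, and without sgHS1-5 2 the counts were 5 and 2. Shares of all genes in these refits are not set beside the counts, so a change may be shared by all genes. Between sgHS1-5 and sgHBG, 2 genes were higher (background 12.4%), HERC5 and MX1, and 9 lower (background 12.8%). Between sgHS1-5 and sgHS2, 2 were higher (background 20.4%), HERC5 and SAMD9 (log2 0.94 ± 0.33, adjusted p = 0.04), and 16 lower (background 18.5%), with a median log2 difference of -0.57 over the 33 genes, against 0.03 over all genes. Without sgHS1-5 2, HERC5 was not tested, and neither MX1 against sgHBG (adjusted p = 0.392) nor SAMD9 against sgHS2 (0.121) was called. STAT2, IRF1, IRF7 and IRF9 were all among the 16 lower genes. XAF1 was lower in sgHS1-5 than in sgHBG (log2 -1.57 ± 0.52, adjusted p = 0.0431), and without sgHS1-5 2 by -2.89 (adjusted p = 0.000404).

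Interferon transcripts themselves were at or near 0 in these libraries. Of 21 interferon genes, 20 had 0 reads in all 14 libraries, and IFNL1, a type III interferon, had 3 reads in sgHS2 2 and 1 read in sgHS2 3. The counts of the following lists stand beside the 14.5%, 12.1% and 20.3% of all genes that were higher in sgHS2, sgHBG and sgHS1-5 than in sgGal4, and the 15.6%, 12.6% and 20.2% that were lower. Among 11 genes of the receptors and their signalling, 2, 1 and 2 were higher in these groups and 0, 1 and 2 lower, so most of these counts lay near the shares of all genes. IFNGR1, the interferon gamma receptor chain, was lower in sgHS1-5 (log2 -0.65 ± 0.13, adjusted p = 0.00214), and IFNLR1, the type III receptor chain, higher there (log2 1.33 ± 0.33, adjusted p = 0.00663).

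Of 16 tested genes of nucleic acid sensing and its adaptors, 6, 5 and 6 were higher than in sgGal4 in sgHS2, sgHBG and sgHS1-5, and 0, 0 and 1 lower, against 14.5%, 12.1% and 20.3% of all genes higher and 15.6%, 12.6% and 20.2% lower. IFI16, a DNA sensor, had 96.2, 88.4 and 99.4 CPM in sgHS2, 102, 100.004 and 95.6 CPM in sgHBG and 21.7, 47.8 and 27.3 CPM in sgHS1-5, against 23.1, 18.1 and 20.3 CPM in sgGal4 and 51.3 and 51.8 CPM in WT. The sgHS2 and sgHBG libraries were highest, sgHS1-5 1 lay within the sgGal4 range, and sgHS1-5 2 was the highest of its group. Its log2 differences were 2.21 ± 0.22 in sgHS2 (adjusted p = 1.47e-05), 2.28 ± 0.22 in sgHBG (adjusted p = 2.28e-05) and 0.66 ± 0.22 in sgHS1-5 (adjusted p = 0.0294). The IFI16 call in sgHS1-5 was lost without sgHS1-5 2 (log2 0.27, adjusted p = 0.137), without sgGal4 2 (0.0867) or sgGal4 3 (0.0613), and with the replicate block (0.0504). IKBKE, a kinase that phosphorylates IRF proteins, differed by 1.08 ± 0.18, 1.28 ± 0.18 and 1.28 ± 0.18 in the same groups, all called. AIM2, an inflammasome sensor of DNA, was called in sgHS2 (log2 1.99 ± 0.26, adjusted p = 0.000132) and sgHS1-5 (log2 1.37 ± 0.27, adjusted p = 0.00195). With sgHS1-5 1 alone, the sgHS1-5 difference was 1.25 for AIM2 and 0.09 for IFI16.

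Of 10 negative regulators, USP18 not counted, 3, 2 and 2 were higher in sgHS2, sgHBG and sgHS1-5 than in sgGal4, and 2, 3 and 2 lower. In sgHS1-5 both counts lay near the 20.3% and 20.2% of all genes, and in sgHS2 and sgHBG the same percentages of all genes were 14.5% and 12.1% higher and 15.6% and 12.6% lower. SOCS1, an inhibitor of JAK kinases, was lower in all 3, with log2 differences of -0.61 ± 0.17 in sgHS2 (adjusted p = 0.0189), -0.54 ± 0.17 in sgHBG (adjusted p = 0.0374) and -1.60 ± 0.19 in sgHS1-5 (adjusted p = 4.96e-05). Its sgHS2 call was lost without sgHS2 1 (adjusted p = 0.0764) or sgHS2 3 (0.0747), and its sgHBG call without sgGal4 1 (0.0943) or any 1 sgHBG library (0.0913 to 0.108). SOCS3, another such inhibitor, was higher in sgHS2 (log2 0.92 ± 0.16, adjusted p = 0.000893) and sgHBG (log2 0.98 ± 0.16, adjusted p = 0.000929) and lower in sgHS1-5 (log2 -0.76 ± 0.17, adjusted p = 0.0043). TRIM21, an antibody receptor and ubiquitin ligase, was higher in all 3 (log2 0.89 ± 0.16, 0.71 ± 0.16 and 0.60 ± 0.16). With sgHS1-5 1 alone, neither SOCS3 (adjusted p = 0.128) nor TRIM21 (0.198) was called in sgHS1-5.

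Of 27 other tested interferon targets, 15, 15 and 11 were higher than in sgGal4 in sgHS2, sgHBG and sgHS1-5, and 3, 1 and 5 lower, against 14.5%, 12.1% and 20.3% of all genes higher and 15.6%, 12.6% and 20.2% lower. SP110, a nuclear body protein, had log2 differences of 3.81 ± 0.24 in sgHS2 (adjusted p = 4.27e-07), 3.83 ± 0.24 in sgHBG (adjusted p = 8.37e-07) and 3.39 ± 0.24 in sgHS1-5 (adjusted p = 1.41e-06). LGALS3BP, a secreted galectin ligand, was called in sgHS2 (log2 2.21 ± 0.13, adjusted p = 2.49e-07) and sgHBG (log2 1.96 ± 0.13, adjusted p = 1.18e-06). GBP5, a guanylate-binding protein, was lower in sgHS2 (log2 -1.71 ± 0.13, adjusted p = 1.71e-06) and higher in sgHBG (log2 1.17 ± 0.12, adjusted p = 3.58e-05). Of 15 MHC class I pathway genes, 4, 4 and 9 were higher and 0, 1 and 2 lower, set against the same percentages of all genes. The peptide transporter genes TAP1 (log2 1.17 ± 0.17, 0.88 ± 0.17 and 0.97 ± 0.18) and TAP2 (log2 0.73 ± 0.13, 1.17 ± 0.13 and 1.55 ± 0.13) were higher in all 3 groups. With sgHS1-5 1 alone, the sgHS1-5 difference was 0.61 for TAP1 and 1.51 for TAP2. TAPBP, tapasin, was lower in sgHBG (log2 -0.35 ± 0.10, adjusted p = 0.0224) and sgHS1-5 (log2 -0.74 ± 0.10, adjusted p = 0.000148). The sgHBG call of TAPBP was lost when any 1 sgHBG library was left out (adjusted p = 0.0514 to 0.0966) and without sgGal4 2 (0.0521).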

How the data were processed

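The RNA-seq data were 14 K562 libraries made, per the labels, with a TruSeq RNA v2 kit, which does not mark strand. The authors deposited raw read counts per gene (24729 genes) and RPKM values (25268 genes), both unpooled. Per the submitters' processing notes, hg19, TopHat, Cufflinks and DESeq were used; the counting tool and annotation are not given in the sources used here.

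The analysis of the counts used R 4.3.3 and edgeR 4.0.16. filterByExpr (minimum count 10, minimum total 15) left 14406 genes. TMM scaled the libraries, 1 model held all 14 of them with 5 group means, and each comparison was a quasi-likelihood test (glmQLFTest). P-values were adjusted over all tested genes by Benjamini-Hochberg and called under 0.05. CPM are TMM-scaled, and errors are SE for log2 differences and SD for levels. Ratios against 1 to 3 reads have exact binomial 95% intervals. The procedure was tested on simulated data, and the outcome is not given here. That test is therefore no evidence on how libraries that stood apart from their own group affect the p-values. Alternatives used RLE factors, other filters, DESeq2 1.42.0, limma 3.58.1 (voom, or log2 RPKM plus 1 or 0.1), only the compared groups, a replicate block, and libraries left out.

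The genes and lists were chosen with earlier results of these data known. Genes described in full were called in 1 direction or in opposite directions in the comparisons with sgGal4, differed over 4-fold between targeting groups, or had sgHS1-5 1 at least 2-fold from its replicates with 30 or more reads, and other pathway lists give the 3 genes of lowest p. Others were added after their values were seen. 1 gene of a pathway list is not reported here.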

Additional observations from a re-analysis of the deposited data

Results flagged for a closer look

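STAT2 and IRF1 differed from sgGal4 in opposite directions in sgHS2 and sgHS1-5, and the difference between those groups was tested directly. Both genes were picked for these opposite calls, from the same libraries and fit. A called difference between the groups therefore follows in large part from that choice and is no independent check. The log2 difference of sgHS1-5 against sgHS2 was -0.97 for STAT2 (edgeR adjusted p = 1.88e-05) and -0.79 for IRF1 (edgeR adjusted p = 0.000233). Every sgHS1-5 library was below every sgHS2 library for both genes, and both calls were kept under every alternative run, with sgHS1-5 1 alone at -0.83 and -0.90.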

How the results depend on the processing

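Each count of called genes was recomputed under the alternatives, and 458 of 540 recomputed counts lay within 1.5 times the reported one. The alternatives did not all test the same 33 genes. With no filter all 39 were tested, while HERC5, MX1, DDX60 and IFIT1 fell under the filter of 0.5 mean RPKM. HERC5 also fell under the filter of 1 CPM in 3 libraries. Such a change in the genes tested can move a count. Beyond that, the cause of the moved counts was not tested, and shares of all genes in the same refits are not set beside the counts. Leaving out 1 library gave 1 to 3 genes lower in sgHBG against sgGal4, 4 to 8 higher and 4 to 11 lower in sgGal4 against WT, 0 to 1 lower in sgHS2 against WT, 1 to 2 lower in sgHBG against WT and 8 to 18 higher in sgHS1-5 against WT. It gave 3 to 9 higher and 0 to 2 lower in sgHS2 against sgHBG, 0 to 3 higher in sgHS1-5 against sgHBG and 0 to 2 higher in sgHS1-5 against sgHS2. The extremes came without WT 1 (4 and 4 in sgGal4 against WT, 8 in sgHS1-5 against WT) and without sgGal4 1 (9 and 2 in sgHS2 against sgHBG). With only the compared groups, 16 genes were higher in sgHS2 against sgGal4, 11 higher and 5 lower in sgHS1-5 against sgGal4, 4 higher and 3 lower in sgGal4 against WT, 4 lower in sgHBG against WT, 11 higher and 3 lower in sgHS2 against sgHBG, and 1 higher in sgHS1-5 against sgHBG and against sgHS2. With sgHS1-5 1 alone, assumed to vary like the other groups, 5 genes were lower against sgGal4, 9 higher and 1 lower against WT and 0 higher against sgHBG and sgHS2, while sgHS2 against sgHBG had 5 higher and 2 lower. Without sgGal4 1 and sgHS2 2, 1 gene was lower in sgHS2 against WT, 2 in sgHBG against WT and 14 in sgHS1-5 against sgHBG, and sgHS2 against sgHBG had 8 higher and 2 lower. Without these and sgHS1-5 2 and 3, chosen after seeing the data, the values were 2, 4, 14, 17 and 6 in the same order, and 1 gene was higher in sgHS1-5 against sgHBG and against sgHS2. RLE factors, no filter, a filter of 1 CPM in 3 libraries, DESeq2, voom and filtered RPKM each gave 1 lower gene in sgHS2 against sgHBG, and filtered RPKM gave 3 lower genes in sgHBG against WT. In sgHS1-5 against sgHBG 1 gene was higher with the 1 CPM filter, DESeq2, voom and unfiltered RPKM. With filtered RPKM, where HERC5 and MX1 were not tested, 0 were higher. In sgHS1-5 against sgHS2 1 was higher with the 1 CPM filter, DESeq2 and RPKM. The replicate block gave 1 higher gene in sgHS1-5 against sgHBG and against sgHS2. Replicate numbers showed no common pairing of libraries: of 26 same-numbered pairs 2 had deviations correlated above 0.1 (range -0.6 to 0.423). The strongest values all joined sgHS2 with sgGal4: -0.529 for replicates 1, -0.6 for replicates 2 and 0.423 for replicates 3. Of these libraries, sgHS2 2 and sgGal4 1 stood apart from their groups, and whether they deviated alike was not tested. MX2 in sgHS1-5 against sgGal4 changed sign with sgHS1-5 1 alone (log2 -0.0047) and without all 4 libraries (log2 -0.14). Of single gene values, 4911 kept direction and side of the threshold, 191 lost and 139 gained a call. Of the 14 genes higher in all targeting groups, CXCL10 (sgHBG, RPKM plus 1), MX2 and XAF1 (sgHS1-5) lost a call under some alternative. DDX60 and IFIT1 were not tested with filtered RPKM, so their calls could not be lost there. Applying the same alternatives to the named genes of the pathway lists was chosen after seeing the data. Genes with few reads, such as DDX60 in sgGal4, are limited by depth.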
